A study of Mus musculus with 4 samples.

Results

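Interferon regulatory factors are a family of transcription factors, and 8 of their genes, Irf1, Irf2, Irf3, Irf4, Irf5, Irf7, Irf8 and Irf9, are described here in sorted innate lymphoid cells of the mouse. They were chosen by name: every probe set (the group of array probes that reports on a gene) annotated with a single symbol of the form Irf and 1 digit was taken, and the set with the highest mean over the arrays stood for its gene. These 8 genes are among 19938 named genes on the array. The rule itself used no measured value other than that mean, though the genes were chosen with earlier results of these data known.

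The study hybridised total RNA to 4 arrays, from CCR6+ ILC3 (group 3 innate lymphoid cells, lymphocytes without rearranged antigen receptors). The cells came from mesenteric lymph nodes of naive C57BL/6 mice and were sorted as CD127+ CD90.2+ CCR6+ ST2-. All 4 samples belong to this single group, so no condition was compared with another. The labels name no further marker of the gate and do not say whether a sample is 1 animal, a pool or a separate sort, so the spread between arrays may be partly technical.

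Members of the family share a DNA-binding domain at the amino terminus that contacts GAAA-type sequences through conserved tryptophans. IRF3, IRF5 and IRF7 are held inactive in the cytoplasm until kinases downstream of nucleic acid sensors and Toll-like receptors phosphorylate them, IRF9 joins STAT proteins to form the interferon-responsive complex ISGF3, and IRF1 and IRF2 bind the same sites, IRF1 as an activator and IRF2 often as its antagonist. IRF4 and IRF8 bind DNA weakly alone and work with partners of the ETS, AP-1 and Ikaros families in lymphocytes and dendritic cells.

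RefSeq promoters (GRCm38.p6, from 250 bases before to 50 bases after a transcript start) were found for all 8 genes, 11 promoters in all. Both strands were searched for 4 motifs that the products of the measured genes are known to bind. The interferon-stimulated response element, GAAANNGAAA, was in 1 of the 11 promoters, against 3.44% of all 32851 mouse promoters in the same table. The STAT site, TTCNNNGAA, was in 3 of 11, against 8.30% of all. The ETS-IRF composite element, GGAANNGAAA, was in 1 of 11, against 2.72% of all, and the AP-1-IRF composite element, TTTCNNNNTGANTCA, was in 0 of 11, against 0.119% of all. The promoters with a match are shown because they hold, in family members themselves, the letters that IRF and STAT proteins bind. Capitals mark the matches, which are descriptions of the letters and not shown to be bound sites.
Irf2 (chr8:46739495-46739794, plus strand): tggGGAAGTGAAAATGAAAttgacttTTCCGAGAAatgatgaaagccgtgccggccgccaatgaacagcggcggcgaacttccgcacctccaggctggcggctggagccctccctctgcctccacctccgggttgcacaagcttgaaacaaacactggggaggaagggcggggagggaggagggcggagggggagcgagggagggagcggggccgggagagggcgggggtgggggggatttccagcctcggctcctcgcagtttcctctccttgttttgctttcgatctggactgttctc
Irf8 (chr8:120736108-120736407, plus strand): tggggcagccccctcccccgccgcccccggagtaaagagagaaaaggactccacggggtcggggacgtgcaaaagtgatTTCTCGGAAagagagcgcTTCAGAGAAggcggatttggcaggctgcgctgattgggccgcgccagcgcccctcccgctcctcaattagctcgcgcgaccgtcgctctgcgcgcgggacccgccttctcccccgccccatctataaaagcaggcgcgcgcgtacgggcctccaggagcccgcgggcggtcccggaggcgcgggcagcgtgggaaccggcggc
Irf1 (chr11:53769764-53770063, plus strand): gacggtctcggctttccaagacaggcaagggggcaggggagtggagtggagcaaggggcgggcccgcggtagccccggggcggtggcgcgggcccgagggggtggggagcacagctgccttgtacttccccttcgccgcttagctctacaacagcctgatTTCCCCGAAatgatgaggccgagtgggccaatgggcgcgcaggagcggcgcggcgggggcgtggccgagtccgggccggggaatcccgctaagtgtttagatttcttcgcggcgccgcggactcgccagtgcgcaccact
In the Irf2 promoter the first run of capitals is the ETS-IRF composite element, 247 to 238 bases before the start, joined to an overlapping interferon-stimulated response element, 241 to 232 bases before it. The second run is a STAT site 224 to 216 bases before the start. The Irf8 promoter holds a STAT site at 171 to 163 bases and another at 153 to 145 bases before the start, and the Irf1 promoter holds 1 at 90 to 82 bases.

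Values are RMA log2 levels, so a step of 1 is a doubling of signal, and errors are SD over the 4 arrays. Probe sets bind unequally, so no gene was ranked against another as an amount of RNA, and each was compared with background. Background was 1243 genes of bitter taste, trace amine, olfactory and vomeronasal receptors, whose 95th percentile lay between 5.72 and 5.84 on the 4 arrays. A gene was called above background when its detection p, from the number of background genes that reached its mean, was under 0.05 after Benjamini-Hochberg adjustment over all named genes. The share called was 46.2% of all named genes. As genes typical of other organs, here termed organ control genes, are not silent on this platform (5 of 15 measured were called, with the muscle creatine kinase gene Ckm at 7.33 ± 0.14, the liver apolipoprotein gene Apoa1 at 7.24 ± 0.11, Tnnt3 at 7.08 ± 0.11 and Syp at 6.56 ± 0.15), a stricter reading asks that every array exceed all organ control genes, which 25.0% of named genes met. With 2 further rules, a level over the 95th percentile of background on each array and limma's test against that percentile, 54.5% and 54.0% of named genes passed.

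The label was set beside markers. ILC3 defining markers were called in 10 of 10 measured cases. Il7r, which encodes CD127, was at 12.56 ± 0.06 and Thy1, which encodes CD90, at 11.36 ± 0.15. Id2 was at 11.54 ± 0.12 and Ltb, a lymphotoxin chain, at 11.33 ± 0.07. The cells were sorted on CD127, CD90.2 and CCR6, so the calls of Il7r, Thy1 and Ccr6 are no independent check of the label. Of the markers of other cells, those called were 12 of 13 for B cells, 4 of 6 for plasma cells, 9 of 11 for T cells, 7 of 11 for natural killer (NK) cells and ILC1, 4 of 10 for dendritic cells and 2 of 10 for monocytes and macrophages. The last 2 shares lay below the 46.2% of all named genes. Over all organ control genes on each array were 10 B cell, 5 T cell, 3 NK cell and ILC1, 1 monocyte and macrophage, 0 plasma cell and 0 dendritic cell markers, and 10 of 10 ILC3 markers. In a bulk sample, fewer cells of a type and less RNA per cell cannot be told apart.

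Of the 8 interferon regulatory factor genes, 7 were above background, against 46.2% of all named genes. The same 7 exceeded every organ control gene on each array, against 25.0% of named genes. They also passed both further rules, against 54.5% and 54.0%. Irf4 was the exception, with a mean within the upper tail of background. The plot of levels by array shows the 7 genes above both bands and Irf4 across them.

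**Figure D1:**
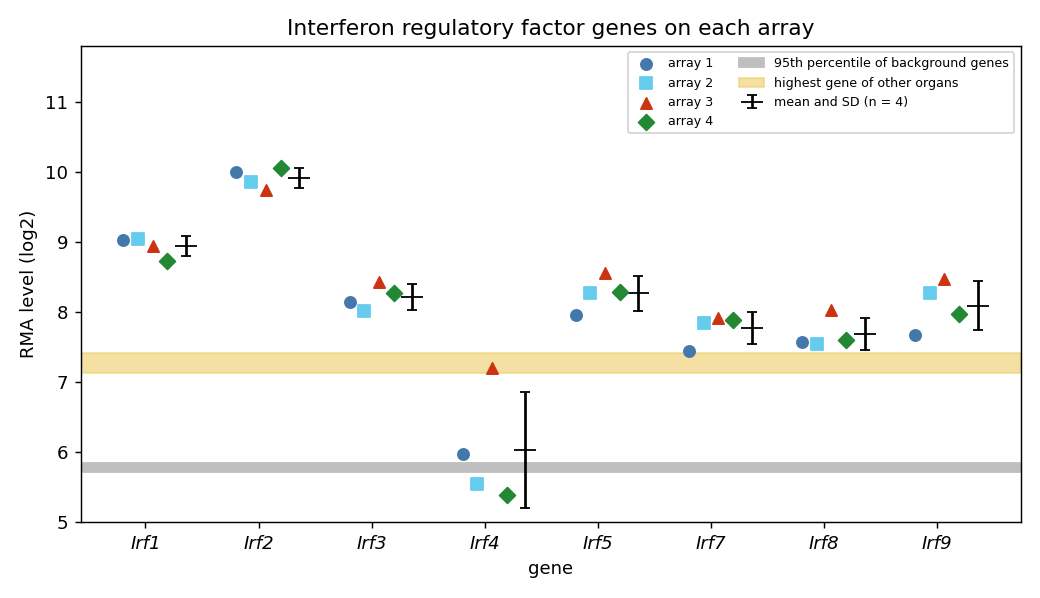
RMA log2 level (y axis) of the 8 interferon regulatory factor genes (x axis) on each of the 4 arrays, with the mean and SD (n = 4) beside the points. The grey band spans the 95th percentiles of background genes (5.72 to 5.84) and the yellow band the highest organ control gene per array (7.13 to 7.42); Irf4 is the only gene with arrays below the yellow band, and its array 3 value of 7.21 stands 1.23 above its next value.

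Irf1, induced by interferon-γ and known to activate genes of antigen presentation, was at 9.03, 9.04, 8.94 and 8.74 on arrays 1 to 4. Its mean of 8.94 ± 0.14 had 2 of the 1243 background genes at or above it. The adjusted detection p was 0.0142. Array 4 was the lowest and the other 3 arrays lay within 0.0960 of each other. A second probe set of Irf1, annotated with a single transcript record, gave 7.57, 7.81, 8.02 and 7.68, so it was lower on every array and highest on array 3, where the first set was not. The probe sets therefore disagree on which array is high, and both means, 7.77 ± 0.19 for the second set, had at most 3 background genes at or above them.

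Irf2, which shares binding sites with IRF1, was at 9.998, 9.86, 9.75 and 10.06. Its mean of 9.92 ± 0.14 had 0 background genes at or above it, which gave the smallest detection p that 1243 background genes allow, 0.000804, and an adjusted p of 0.0108. Array 3 was the lowest here, and the highest and lowest arrays differed 1.24-fold.

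Among the factors activated by phosphorylation, Irf3, known as the first responder to cytosolic nucleic acids, was at 8.14, 8.01, 8.43 and 8.28, a mean of 8.22 ± 0.18. Irf5, which acts downstream of Toll-like receptors, was at 7.96, 8.28, 8.56 and 8.28, a mean of 8.27 ± 0.25. Irf7, which interferon induces and which drives interferon-α genes, was at 7.44, 7.85, 7.92 and 7.88, a mean of 7.77 ± 0.23. Each of these means had 3 background genes at or above it. The adjusted detection p of each was 0.0142. Array 3 was the highest for all 3 genes, and array 1 was the lowest for Irf5 and Irf7. For Irf7 the other 3 arrays lay within 0.0755 of each other, so nearly all of its spread came from array 1, where it was just above the highest organ control gene, 7.42.

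Irf9, the DNA-binding subunit of ISGF3, was at 7.67, 8.27, 8.47 and 7.97. Its mean of 8.09 ± 0.35 had 3 background genes at or above it. The adjusted detection p was again 0.0142. The range of 0.80 corresponds to 1.75-fold between array 3, the highest, and array 1, the lowest. That was the widest range of the 7 genes called.

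Irf8, needed by dendritic cells and monocytes and active in B cells, was at 7.58, 7.54, 8.03 and 7.60. Its mean of 7.69 ± 0.23 had 4 background genes at or above it. The adjusted detection p was 0.0160. Arrays 1, 2 and 4 lay within 0.0571 of each other and array 3 stood 0.43 above them. Without array 3 the mean was 7.57, and Irf8 was still called with an adjusted detection p of 0.0184.

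Irf4, which acts in activated lymphocytes, in T helper cells that make IL-17 and in plasma cell formation, was at 5.98, 5.55, 7.21 and 5.39. Its mean of 6.03 ± 0.82 had 46 background genes at or above it, and the adjusted detection p of 0.0715 missed the threshold. The unadjusted detection p was 0.0378, and limma's test against the 95th percentile of background gave an adjusted p of 0.418. Array 3 alone exceeded every organ control gene, 7.21 against at most 7.13 on that array, where the organ control genes reached less high than the 7.397 to 7.42 of the other arrays. On that array 8 background genes were at or above Irf4, against 49, 96 and 116 on arrays 1, 2 and 4. Highest and lowest array differed 3.52-fold, and without array 3 the range fell to 0.59, the mean was 5.64 and the adjusted detection p was 0.103.

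The 8 genes were compared with other genes for their spread. The median range between arrays was 0.484 log2 units for the 8 genes and 0.374 for all genes above background, and the median SD was 0.226 and 0.168. The gap was smaller without array 3, where the median range was 0.314 for the 8 genes and 0.286 for the same genes above background. It was also smaller without array 1, at 0.369 and 0.294. The gap was wider without array 2, at 0.464 and 0.301, and without array 4, at 0.484 and 0.291. The SD of Irf2 and Irf1 exceeded that of 40.0% and 40.7% of genes above background, and the SD of Irf3 that of 54.8%. For Irf7, Irf8 and Irf5 this share was 67.1%, 67.6% and 72.6%, for Irf9 it was 87.9% and for Irf4 99.2%. Irf4 itself was not above background, so its share sets it among genes to which it does not belong.

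**Figure D2:**
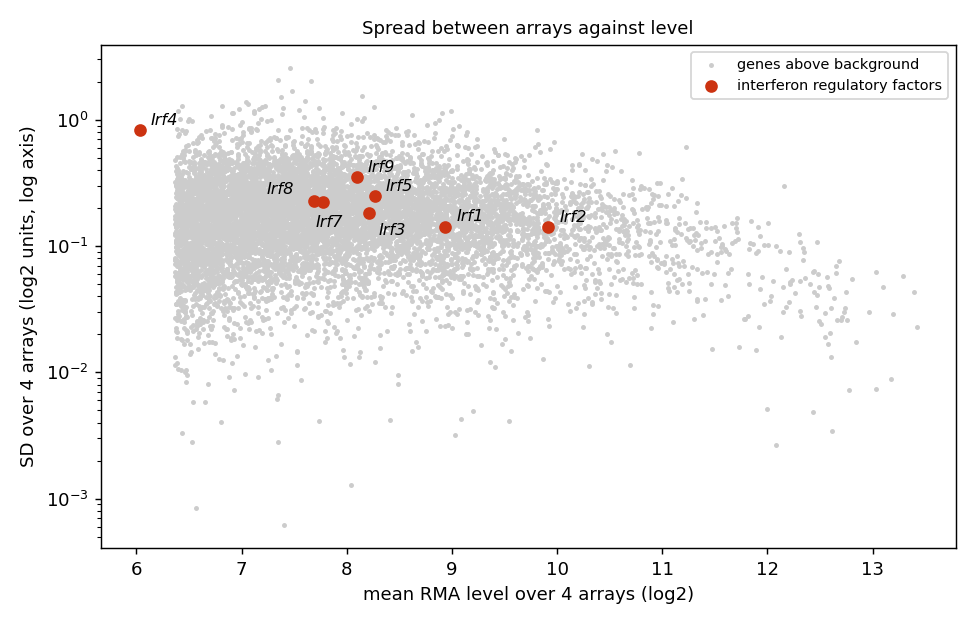
SD over 4 arrays (y axis, log scale) against mean RMA level over 4 arrays (x axis, log2) for the genes above background (grey) and the interferon regulatory factor genes (red). Irf4 has the largest SD of the 8, 0.82, at the lowest mean, 6.03, and Irf1 and Irf2 have the smallest, 0.14 each.

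Array 3 was the highest array for 6 of the 8 genes (Irf3, Irf4, Irf5, Irf7, Irf8 and Irf9), while 25.0% of genes above background were highest on array 3. The margin over the next array was 1.23 for Irf4, 0.43 for Irf8, 0.28 for Irf5, 0.21 for Irf9, 0.15 for Irf3 and 0.04 for Irf7. With each array centred on its median, a setting added after the data were seen, the count was again 6 and the share of genes above background was 31.4%. No test was made of this count, because array 3 was singled out from the same values.

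Other measures moved with array 3 as well. B cell markers had list means of 8.58, 7.69, 8.78 and 7.53 on arrays 1 to 4, so they were high on array 1 as well as array 3. Of the 13 measured, 11 were highest on array 3, against 25.0% of genes above background. Cd79b, a signalling chain of the B cell receptor, was at 10.21, 9.58, 10.38 and 9.19, and Cd79a at 9.59, 8.33, 9.43 and 8.03. Bank1, a B cell scaffold, was at 9.36, 8.04, 9.71 and 7.93, Pou2af1, a B cell coactivator, averaged 9.19 ± 0.35, and Fcrla, at 5.96 ± 0.38, was not called. The difference of array 1 from array 4 was 0.59 for Irf4 and -0.02 for Irf8, against 1.06 for the mean of B cell markers.

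Plasma cell markers had list means of 6.75, 6.59, 7.55 and 6.31, highest on array 3 and lowest on array 4, as for Irf4 and for the mean of B cell markers. Of the 6, 2 were highest on array 3, Jchain and Igha, against 25.0% of genes above background. Jchain, the joining chain of secreted IgA and IgM, was at 7.96, 8.14, 9.96 and 6.96, and Igha, the IgA constant region, at 7.27, 6.39, 10.66 and 6.33. Mzb1, at 6.68 ± 0.31, and Tnfrsf13b, at 6.76 ± 0.17, were called without being highest on array 3. Sdc1, at 6.27 ± 0.30, and Tnfrsf17, at 5.17 ± 0.10, were not called and were highest on array 1. The part of B cells or plasma cells in the levels of Irf4 and Irf8 was not tested.

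Dendritic cell markers had list means of 5.70, 5.95, 6.01 and 5.68. Fscn1 was at 7.33 ± 0.71, Ccl17 at 7.12 ± 0.49, Ccl22 at 6.54 ± 0.65 and Zbtb46 at 6.47 ± 0.07, while the cytokine receptor gene Flt3, at 6.26 ± 0.16, and Siglech, a plasmacytoid marker, at 5.90 ± 0.08, were not called. Flt3 passed limma's test and the percentile rule, and Siglech the percentile rule. None of the 10 exceeded every organ control gene on each array; Ccl22 was not called without array 3, at 6.31. Monocyte and macrophage markers had list means of 6.16, 6.02, 6.10 and 5.78, with the lysozyme gene Lyz2 at 8.22 ± 0.73 and Cd68 at 6.94 ± 0.46 called. C1qb averaged 6.27 ± 0.60 and Adgre1 6.32 ± 0.46, short of a call. Adgre1 passed without array 1, 2 or 4, at 6.395, 6.38 and 6.42, and C1qb without array 2 or 4, at 6.33 and 6.50. The part of these cells in Irf5 and Irf8 was not tested either.

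T cell markers had list means of 7.52, 7.49, 7.78 and 7.48, highest on array 3. Lat, an adaptor of antigen receptor signalling, averaged 10.03 ± 0.12, Cd3e 8.91 ± 0.22, Cd3g 8.77 ± 0.50 and Cd3d 8.32 ± 0.44, and neither Trat1 at 4.27 ± 0.30 nor Themis at 6.15 ± 0.30 was called. NK cell and ILC1 markers had list means of 6.89, 7.20, 6.92 and 6.66. The chemokine gene Ccl5 averaged 9.81 ± 0.83, Klrk1 8.28 ± 0.61, Xcl1 8.06 ± 0.58 and Klrb1c 8.02 ± 0.05. Itga2, at 5.63 ± 0.26, missed the threshold, and so did Gzma, at 6.11 ± 1.23, which passed when array 1 was left out, at 6.41. ILC3 defining markers had list means of 10.50, 10.54, 10.44 and 10.51, so they were lowest on array 3.

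**Figure D3:**
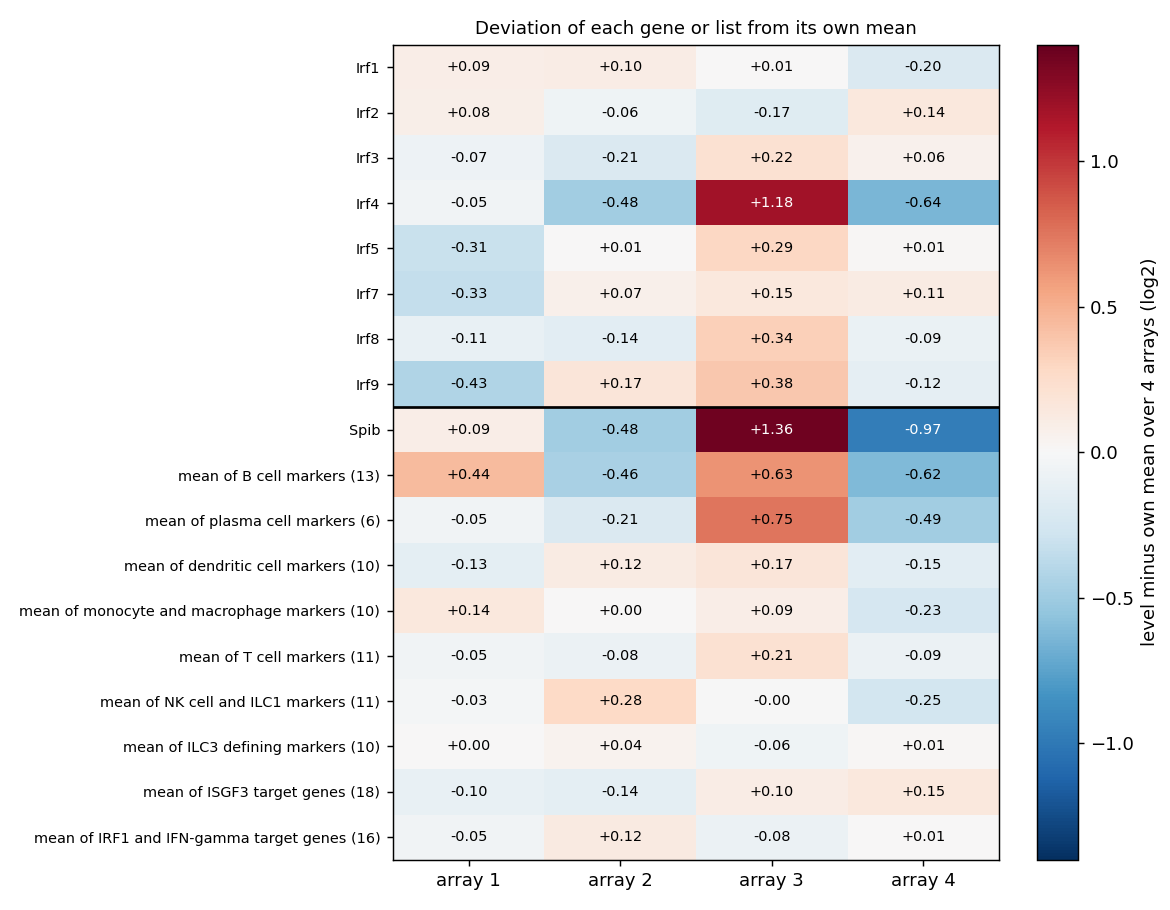
Deviation from its own mean over the 4 arrays (colour and printed value, log2 units; arrays in columns) of each interferon regulatory factor gene, of Spib and of the mean of each list (measured members in brackets). On array 3, Irf4 stands at 1.18 and Irf8 at 0.34 above their means, and the B cell and plasma cell lists are also high there, while Irf1 is at 0.01 and Irf2 at -0.17.

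For the 3 genes with the largest SD, the genes above background with the most similar profile were sought, by the root mean square difference of the 4 values after each gene's own mean was subtracted. For Irf4 these were Acp5 at a difference of 0.11, Fcrl1, a receptor-like gene of B cells, at 0.11 and Plac8 at 0.12. Fcrl1 was at 7.19, 6.56, 8.46 and 6.395, Acp5 at 7.72, 7.25, 8.72 and 7.19, and Plac8 at 8.40, 8.12, 9.49 and 7.68. All 3 were highest on array 3 and lowest on array 4, like Irf4, which follows from how they were chosen. For Irf9 the nearest were Abraxas2, Rhbdd1 and Odf2l, at differences of 0.027, 0.030 and 0.037, and for Irf5 Mllt10, Tcf24 and Chd1l, at 0.0096, 0.019 and 0.021. Each search covered 9202 or 9203 genes with 4 arrays, so close matches are easily found and no shared role is implied.

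Partners of IRF4 and IRF8 were above background in 10 of 11 cases, against 46.2% of all named genes. Of the 11, 7 exceeded all organ control genes, against 25.0% of named genes. The lists that follow are to be read against the same shares. Ikzf1, which encodes Ikaros, was at 10.40 ± 0.10. The AP-1 genes Jun at 9.66 ± 0.08, Batf at 9.50 ± 0.35, Batf3 at 8.94 ± 0.19, Junb at 8.25 ± 0.16 and Jund at 8.16 ± 0.07 were called, and Batf2, at 6.13 ± 0.18, was not, although it passed limma's test and the percentile rule. Batf, the partner of IRF4 in T helper cells, was thus called while Irf4 was not. The ETS genes, named after their values were seen, differed from each other: Spi1, which encodes PU.1, was at 6.75, 6.78, 6.64 and 6.88, and Spib at 7.27, 6.70, 8.55 and 6.21. Spib was highest on array 3 and lowest on array 4, as Irf4 was, and neither ETS gene exceeded all organ control genes on each array.

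Interferon receptors, their kinases and STAT genes were called in 9 of 10 measured cases, and the same number exceeded all organ control genes. The kinase genes Jak1, Jak2 and Tyk2 were at 11.15 ± 0.05, 9.78 ± 0.28 and 8.61 ± 0.17. The interferon-γ receptor chains Ifngr1 and Ifngr2 were at 10.61 ± 0.14 and 9.68 ± 0.27, and the type I receptor chain Ifnar2 at 9.82 ± 0.29. Ifnar1, the other type I chain, was at 8.33 ± 0.04 and Stat2, the ISGF3 subunit that binds IRF9, at 7.51 ± 0.08, both named after their values were seen. Ifnlr1, the chain specific to type III interferon, was at 5.55 ± 0.10 and not called.

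Sensors, adaptors and kinases that activate IRF3, IRF5 and IRF7 were called in 11 of 14 measured cases, with 6 over all organ control genes. Sting1, the adaptor of cytosolic DNA sensing, was at 10.59 ± 0.13, the IRF3 kinase genes Tbk1 and Ikbke at 8.71 ± 0.16 and 8.12 ± 0.06, and the adaptor genes Ticam1, Mavs and Myd88 at 8.07 ± 0.25, 8.04 ± 0.15 and 8.04 ± 0.49. Cgas, the enzyme that makes the STING ligand, was at 5.51 ± 0.03 and not called, nor were the RNA-sensing receptors Tlr3 at 5.59 ± 0.26 and Tlr7 at 5.19 ± 0.56. Each of these 3 sensor genes was measured by 1 probe set.

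Cofactors and negative regulators were called in 9 of 9 measured cases, with 7 over all organ control genes. The phosphatase genes Ptpn6 and Ptpn2 were at 8.78 ± 0.22 and 8.68 ± 0.02, Trim21, a ubiquitin ligase for IRF proteins, at 8.46 ± 0.28, Rbck1 at 8.01 ± 0.10 and Socs3 at 7.57 ± 0.23. The IRF2-binding proteins, known as corepressors, were represented by Irf2bp2 at 8.32 ± 0.08, and by Irf2bp1 at 7.56 ± 0.12 and Irf2bpl at 6.58 ± 0.18, both of them named after their values were seen.

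ISGF3 target genes were called in 13 of 18 measured cases, with 6 over all organ control genes. Ifi27l2a was at 10.52 ± 0.43, Trim30a at 10.08 ± 0.21, Rtp4 at 9.87 ± 0.31, Bst2, which encodes tetherin, at 9.78 ± 0.21, Xaf1 at 9.49 ± 0.43 and Ifit3 at 8.77 ± 0.09. Rsad2, which encodes viperin, at 5.56 ± 0.26, Ifit2 at 5.38 ± 0.38 and Cmpk2 at 4.93 ± 0.19 were not called. The list mean was 7.34, 7.30, 7.55 and 7.59 on arrays 1 to 4, so arrays 3 and 4 were close and array 4 was the highest. Of the 18 genes, 8 were highest on array 3, as Irf9 and Irf7 were, against 25.0% of genes above background. Others were highest on array 4, among them Trim30a, Rtp4, Bst2, Xaf1 and Ifit3. Irf7 was itself close on these arrays, at 7.92 on array 3 and 7.88 on array 4. Whether the list follows Irf9 or Irf7 was not tested. Usp18, an ISGF3 target that restrains receptor signalling and was named after its values were seen, was at 7.72, 7.31, 7.97 and 8.53, highest on array 4.

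Genes induced by interferon-γ and IRF1 were called in 16 of 16 measured cases, with 13 over all organ control genes. The count called was 15 without array 2 and without array 4. It was also 15 under limma's test, under the percentile rule and with olfactory receptors alone as background. Array 3 was the highest for 0 of the 16, against 25.0% of genes above background. B2m was at 12.84 ± 0.02, the immunoproteasome genes Psmb9, Psmb8 and Psmb10 at 10.73 ± 0.04, 9.79 ± 0.14 and 9.72 ± 0.15, and Tapbp, which encodes tapasin, at 9.17 ± 0.11. Nlrc5, the transactivator of MHC class I genes, was at 9.97 ± 0.67 on the highest of its 19 probe sets, whose means ran from 6.65 to 9.97 with a median of 7.96, so its level depends on the set chosen. Ciita, the class II transactivator, was at 8.34, 8.06, 8.09 and 7.48 and was named after its values were seen.

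Interferon genes themselves were called in 5 of 16 measured cases, below the 46.2% of all named genes. Over all organ control genes were 2 of the 16, below the 25.0% of named genes. Ifnb1, named after its values were seen, was at 4.51 ± 0.10 and Ifng at 5.62 ± 0.06, and neither was called. Ifna5 at 7.75 ± 0.14, Ifnl2 at 7.59 ± 0.07, Ifnz at 6.68 ± 0.26, Ifna14 at 6.58 ± 0.10 and Ifna2 at 6.41 ± 0.15 were called, and Ifna9 at 6.00 ± 0.05 and Ifnab at 5.99 ± 0.14 were not, although both passed limma's test and the percentile rule. Interferon-α genes are near-identical copies, and their probe sets cannot be relied on to tell them apart. Ifna2 was not called without array 3 or array 4, at 6.43 and 6.36.

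**Figure D4:**
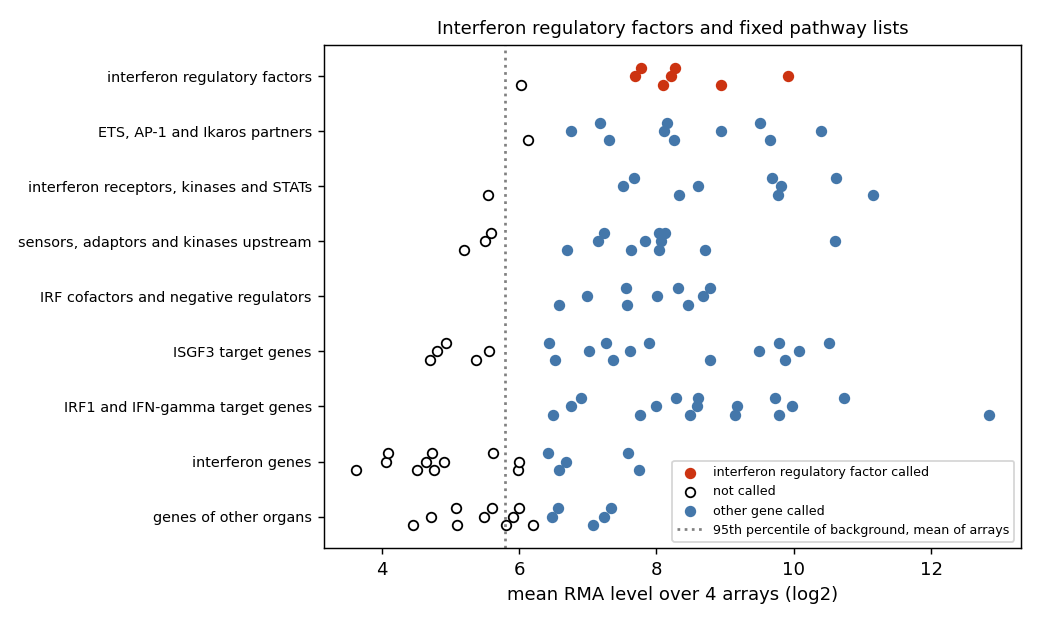
Mean RMA level over 4 arrays (x axis, log2) of each measured gene of the interferon regulatory factors, of the pathway lists and of the organ control genes (labelled genes of other organs; points are spread vertically for sight only). Filled points were called above background, as were 46.2% of all named genes. Of the interferon regulatory factors 7 of 8 are filled, against 5 of 16 interferon genes and 5 of 15 organ control genes.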

How the data were processed

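The authors deposited log2 values, 1 per probe set and array, made with RMA (background correction, normalization between arrays and summary of probes), per the submitters' processing notes. Its version, the software and the genome build were not given in the sources used here. All columns of the table of 35556 probe sets belonged to the 4 samples, and no files were left out. The number of arrays limits the precision. Pearson's r across genes above background was 0.948 to 0.962 in the 6 pairs of arrays, so no array was a copy of another.

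Names came from the platform annotation held by GEO: 21789 probe sets had 1 symbol, 1621 several, which were left unnamed, and 12146 none listed. Of the first, 21698 had an Entrez identifier in RefSeq (GRCm38.p6), used to update symbols. Where a gene had more than 1 probe set (999 of 19938 genes), the one with the highest mean was taken.

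The one-sided detection p was (k + 1) / (1243 + 1), where k background genes reached the mean of the gene tested, adjusted over 19938 genes. Alternatives were leaving out each array, centring arrays on their medians, a rule that each array exceed the 95th percentile of background, a one-sided limma test against that percentile, olfactory receptors alone as background, the mean of all probe sets, and a rule that each array exceed all organ control genes. Python 3.11.15, numpy 2.4.6, pandas 2.3.3, R 4.3.3 and limma 3.58.1 were used, and the detection and limma steps were tested on simulated data. For raised genes, the condition to pass covered only the largest simulated rise.

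The genes and lists were chosen with earlier results of these data known. The rule for named genes took all members of the family; per pathway list, the 6 genes called and the 3 not called with the highest means; per marker list, 4 and 2; and the 3 nearest profiles of 3 members. It gave 110 genes. A further 9 genes were named after their values were seen. List genes without a probe set of their own name are not analysed here.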

Additional observations from a re-analysis of the deposited data

Results flagged for a closer look

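Among 134 values read on 4 arrays (named genes and list means), 8 had an array that stood far from the other 3, by Dixon's test at its 95% critical value. That is 5.97%, and chance gives about 1 in 20. Of the 8, 6 were on array 3 and 2 on array 1.

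Irf8 was at 8.03 on array 3, against 7.54 to 7.60 on the others. Irf7 was at 7.44 on array 1, against 7.85 to 7.92. Jak1 was at 11.07 on array 1, against values of 11.18 on the other 3. Irf2bpl was at 6.31 on array 3, against 6.65 to 6.68. Among markers of other cells, Cd3g of T cells was at 9.51 on array 3, against 8.47 to 8.59, and Adgre1 of macrophages at 7.003, against 6.03 to 6.15. The mean of T cell markers was 7.78 on array 3, against 7.48 to 7.52. Ckm, a gene of another organ, was at 7.12 on array 3, against 7.397 to 7.42.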

How the results depend on the processing

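The count of 7 of 8 interferon regulatory factor genes above background was 7 under all 10 alternatives run, and Irf4 was the gene not called in each. Over the pathway lists, 73 of 94 genes were called, and 69 to 75 under all alternatives but the rule on organ control genes, which gave 50. Over the marker lists 48 of 71 were called, 46 to 51 when 1 array was left out, 45 to 52 under the others, and 29 under the rule on organ control genes. The median range of the 8 genes, 0.484, lay between 0.314 and 0.484 when 1 array was left out, lowest without array 3, and was 0.523 with arrays centred. Of the named genes, 7 more were called by limma (Adgre1, Batf2, Flt3, Ifna9, Ifnab, Sdc1 and Themis) and 3 fewer with olfactory receptors alone as background; besides those given above, Sdc1 was called without array 2, at 6.38, and Tcf24 not without array 3, at 6.34. No paired analysis was possible because there is 1 group. Signals within the range of organ control genes, up to 7.42, carry little weight.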
